A study of Mus musculus with 7 samples.

Results

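Mitotic kinases, kinesins and centromere genes were followed in transplanted mouse gliomas. The genes were matched by a rule on symbols, written with earlier results of these data known. It names kinesins of the Kif and Kifc series, the Cenp genes and kinetochore subunits Ndc80, Nuf2, Spc24 and Spc25. It also names a list of kinases, checkpoint proteins, cyclins and spindle proteins of mitosis. The rule matched 90 of the 18193 genes on the array that have a probe assigned to 1 gene, each read by its probe with the highest mean. By role, 63 of the 90 act in mitosis, 17 are kinesins of intracellular transport and 10 are other kinesins. Of these, 86 lay above the filter on dim probes and were tested, and Kif2b, Kif14, Kif18a and Kif28 lay below it.

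RNA came from EGFP-positive cells of 4 secondary and 3 tertiary gliomas, collected by flow sorting after trypsin dissociation. The sort was for glioma cells of C57/Bl6 background that overexpress PDGF-B and EGFP, and markers of other cells are given below. All 7 samples grew in NOD/SCID hosts. Both groups thus share the oncogene and the lack of adaptive immunity. The secondary gliomas grew from cells of primary, early onset tumours, and the tertiary ones from cells of a secondary glioma. Hosts were dissected when symptoms began. The labels name biological replicates but neither the donor tumours nor the promoter and cell type that drove PDGF-B, and they state neither host age nor sex. The p-values measure the spread between these samples, which may in part be technical. Hosts of this strain still have macrophages and microglia.

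A cell that divides builds a spindle of microtubules and attaches each chromosome to it through the kinetochore, a protein complex on the centromere. Cdk1 with its cyclins drives entry into mitosis, Aurora and Polo-like kinases order its steps, the spindle checkpoint holds back anaphase, and the ubiquitin ligase APC/C with Cdc20 ends it. Most kinesins of mitosis are made chiefly by dividing cells, whereas the transport kinesins carry vesicles, organelles and mRNA along microtubules in cells that do not divide as well, neurons above all. PDGF drives the division of oligodendrocyte precursors, the cells that gliomas of this kind resemble.

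The mitotic genes set tertiary glioma 1 apart from tertiary gliomas 2 and 3 more than they set the tertiary group apart from the secondary group. In tertiary glioma 1 the value was the lowest of the 3 tertiary samples in 62 of 63 mitotic genes, Kif2b being the exception, against 39.0% of the 14453 genes tested. In tertiary gliomas 2 and 3 the value was above all 4 secondary samples in 58 of 63, against 24.9% of genes tested, the exceptions being Cdc25b, Cenpb, Cenpo, Cenpx and Kif2b. Over all 3 tertiary samples only 1 of the 86 tested genes passed, the motor gene Kifc1, which was higher, in limma with an adjusted p under 0.05. That share stands beside 7.38% of all genes tested that passed in either direction and 1.04% that were higher. At an unadjusted p under 0.05 the count was 12 higher and 2 lower among the 86, and 23.8% of all genes tested reached it, 12.1% as higher. In these bulk samples a lower value can stand for fewer dividing cells or for less mRNA in each, which cannot be told apart. These orderings were described after the values had been seen and were not tested. Tertiary glioma 1 stood out in these same values. The p-values and calls from fits without it, given below, are description and no separate test.

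**Figure D1:**
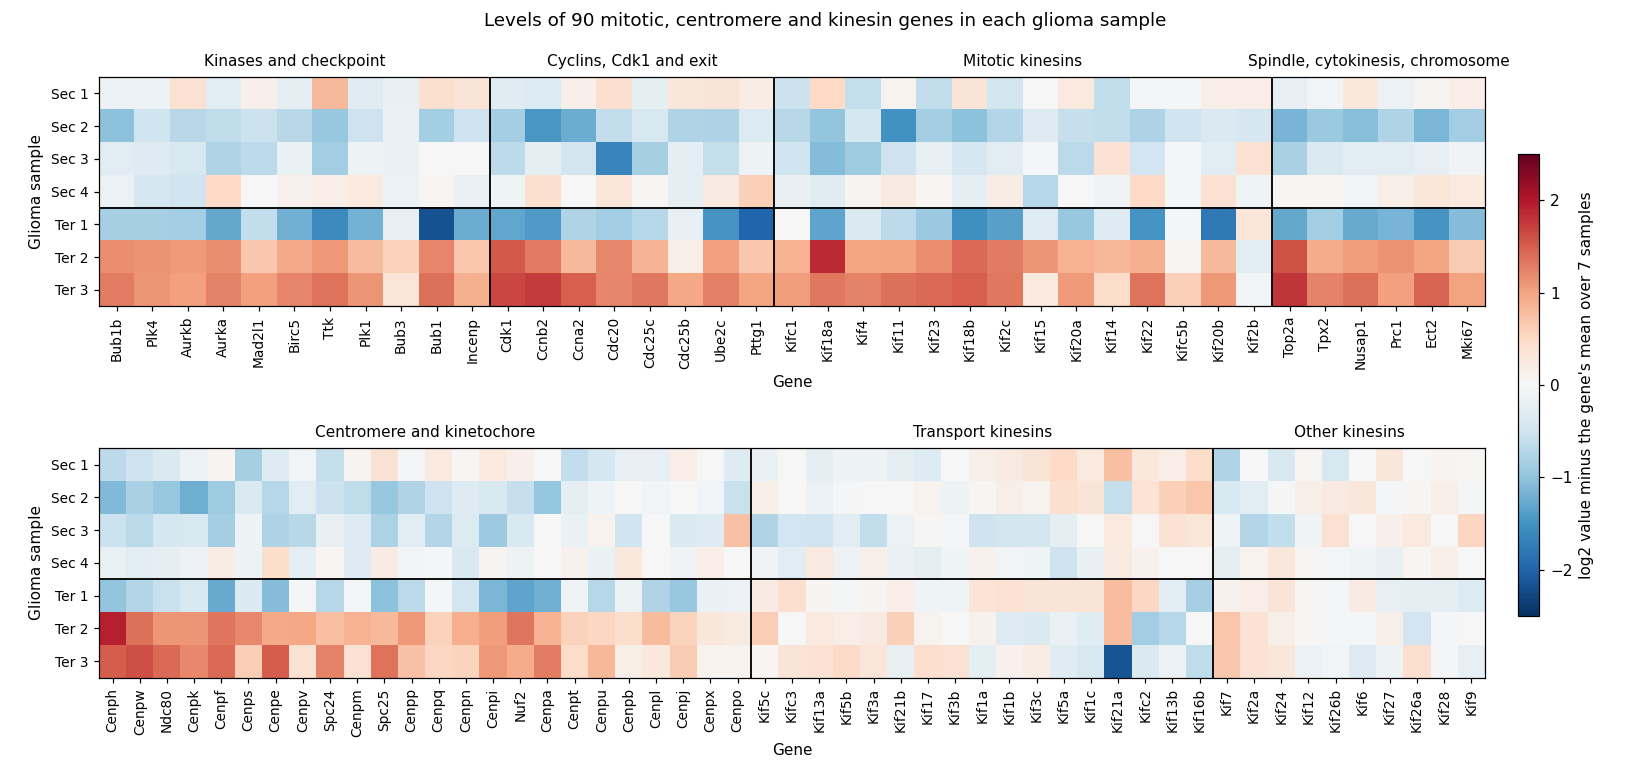
Levels of the 90 genes (columns, grouped by role) in each glioma sample (rows); colour gives the log2 value minus the gene's mean over the 7 samples, red higher and blue lower. The row of tertiary glioma 1 is blue and the rows of tertiary gliomas 2 and 3 are red through nearly all mitotic genes, while the transport and other kinesins show no such pattern.

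Promoter sequences are shown because the mitotic genes varied together and because promoters of such genes are known to share a pair of elements. One is the cell cycle genes homology region, read by the MuvB complexes that silence these genes in resting cells and switch them on before mitosis, and the other is the CCAAT box bound by NF-Y. The stretches below run from 130 bases before to 20 bases after the RefSeq transcript start in GRCm38.p6, 5′ to 3′ on the strand of the gene. Capitals mark TTTGAA or TTCGAA and CCAAT, on either strand (TTCAAA and ATTGG are the other-strand spellings of the first and the last). The examples were chosen after the sequences had been searched: Kifc1 as the gene that passed, then a kinase, a cyclin, an APC/C activator, a centromere protein and further mitotic motors, with a pair of transport kinesins for contrast.
Kifc1 (chr17:33890614-33890763, minus strand): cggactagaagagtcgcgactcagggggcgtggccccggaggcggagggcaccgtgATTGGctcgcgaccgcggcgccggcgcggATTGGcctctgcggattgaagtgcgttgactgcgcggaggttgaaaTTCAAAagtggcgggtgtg
Cdk1 (chr10:69352893-69353042, minus strand): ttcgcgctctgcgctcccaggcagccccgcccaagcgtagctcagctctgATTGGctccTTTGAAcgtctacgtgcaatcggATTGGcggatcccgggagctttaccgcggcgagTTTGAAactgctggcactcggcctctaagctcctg
Ccnb2 (chr9:70421535-70421684, minus strand): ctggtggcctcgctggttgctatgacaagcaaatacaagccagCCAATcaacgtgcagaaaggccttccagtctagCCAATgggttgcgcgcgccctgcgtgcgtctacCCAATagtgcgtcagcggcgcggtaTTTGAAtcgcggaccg
Cdc20 (chr4:118437324-118437473, minus strand): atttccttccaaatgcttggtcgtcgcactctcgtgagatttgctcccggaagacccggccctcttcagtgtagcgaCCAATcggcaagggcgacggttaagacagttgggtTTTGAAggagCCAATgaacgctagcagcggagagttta
Cenpf (chr1:189688067-189688216, minus strand): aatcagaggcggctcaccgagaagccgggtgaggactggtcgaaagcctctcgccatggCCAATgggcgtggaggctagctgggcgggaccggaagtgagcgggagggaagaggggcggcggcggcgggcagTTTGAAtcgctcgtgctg
Kif23 (chr9:61946780-61946929, minus strand): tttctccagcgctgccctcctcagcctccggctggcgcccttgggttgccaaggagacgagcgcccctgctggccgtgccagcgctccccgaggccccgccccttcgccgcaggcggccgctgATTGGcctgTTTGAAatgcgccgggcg
Kif11 (chr19:37376252-37376401, plus strand): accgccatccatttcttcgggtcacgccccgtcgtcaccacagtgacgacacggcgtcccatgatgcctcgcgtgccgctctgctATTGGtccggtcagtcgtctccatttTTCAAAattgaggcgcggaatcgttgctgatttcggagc
Kif5c (chr2:49619156-49619305, plus strand): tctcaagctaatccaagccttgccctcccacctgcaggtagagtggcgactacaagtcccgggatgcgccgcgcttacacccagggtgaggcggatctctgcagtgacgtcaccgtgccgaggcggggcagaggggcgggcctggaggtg
Kif3a (chr11:53567239-53567388, plus strand): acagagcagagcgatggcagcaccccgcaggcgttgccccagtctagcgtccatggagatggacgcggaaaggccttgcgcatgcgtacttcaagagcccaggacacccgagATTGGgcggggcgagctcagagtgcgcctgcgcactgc

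In the Ccnb2 stretch 3 CCAAT boxes lie upstream of the start, the nearest 21 bases before it, and TTTGAA follows just after it. The Cdk1 stretch holds TTTGAA 71 and 15 bases before the start, and Cdc20 holds it 18 bases before. Kif5c has neither element in the stretch shown, and Kif3a has a CCAAT box, on the other strand, 18 bases before its start. Over the full windows of 300 bases (250 before to 50 after a start), TTTGAA or TTCGAA on either strand was found in 37 of 62 windows of the mitotic genes (59.7%), in 1 of 13 of the transport kinesins, and in 19.2% of all 32841 windows. CCAAT on either strand was in 44 mitotic windows (71.0%), 4 transport windows and 37.4% of all windows. Both together were in 33 mitotic windows (53.2%), 0 transport windows and 7.52% of all. The other kinesins held the first element in 3 of 11 windows (27.3%), CCAAT in 4 (36.4%) and both in 3 (27.3%). Among the mitotic roles the first element was in 11 of 13 windows of mitotic kinesins and in 8 of 26 of centromere and kinetochore genes. The table held windows for 56 of the 63 mitotic genes, 11 of the 17 transport kinesins and 9 of the 10 other kinesins. CCAAT and TTTGAA can share a T where they abut. A match is a run of letters and not a bound site. Some mitotic genes with neither element in their window, such as Birc5, Mad2l1, Nuf2, Nusap1, Plk4 and Pttg1, had the same order of tertiary samples. In 5 mitotic genes tertiary gliomas 2 and 3 were not both above all secondary samples. Of these, Cenpb and Cenpo had neither element in their windows, Cenpx and Kif2b had CCAAT only, and Cdc25b had both. Any link of the elements to the values was not tested.

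The arrays had nearly the same medians (5.57 to 5.64 on the log2 scale), since the values were equalised between arrays, and no detection calls or scan dates were used. Markers of oligodendrocyte precursors were at similar levels in all samples, with list means over 9 genes of 10.05 to 10.51 in secondary and 10.10 to 10.53 in tertiary gliomas, and 0 of 9 passed, also at an unadjusted p under 0.05 in limma. Markers of microglia and macrophages moved with the groups: 18 of 18 measured genes passed and were lower in tertiary gliomas (limma, adjusted p under 0.05), and the mean of the list lay between 10.39 and 11.18 in secondary and between 6.14 and 7.07 in tertiary samples. Itgam was the only one of these markers to lie below the dim filter in all 3 tertiary samples. In tertiary gliomas 1, 2 and 3 the mean of these markers was 6.73, 7.07 and 6.14, so tertiary glioma 1 lay between the other two. The part of these cells in the values of the mitotic genes was not tested. Lymphocyte markers had list means of 4.13 to 4.37 over the 7 samples. Astrocyte, neuron, endothelial and ciliated cell markers held 0 of 8, 0 of 9, 0 of 6 and 0 of 6 tested genes that passed (at an unadjusted p under 0.05, 2, 2, 4 and 0). The astrocyte list varied within the tertiary group in the direction opposite to the mitotic genes, with means over 8 genes of 7.83, 6.66 and 6.74 in tertiary gliomas 1 to 3 and of 7.36 to 8.38 in secondary gliomas. Aqp4, the water channel of astrocytes, was at 6.42, 3.86 and 3.86 in tertiary gliomas 1 to 3, below the dim filter in gliomas 2 and 3, and between 5.66 and 7.25 in secondary gliomas. Not every gene of the list followed its mean. Gfap was at 5.57, 6.52 and 5.97 in tertiary gliomas 1 to 3, the 1 gene of the 8 lowest in tertiary glioma 1 among the tertiary samples. Aldh1l1, near the dim filter, was at 3.96, 4.02 and 3.35. With tertiary glioma 1 left out, 2 of the 8 astrocyte genes were called lower. The part of astrocytes in the values of the mitotic genes was not tested.

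Among the kinases and checkpoint proteins, 0 of 11 passed in limma, also at an unadjusted p under 0.05, and the median log2 fold change was 0.57 (tertiary minus secondary), beside 0.087 over all genes tested. Aurka, the kinase of spindle poles, stood at 6.63, 6.25, 6.13 and 7.39 in secondary gliomas 1 to 4 and at 5.60, 8.05 and 8.13 in tertiary gliomas 1 to 3. The secondary samples lay between tertiary glioma 1 and the other two, so the groups overlapped (difference 0.66 ± 0.63, the SE over 4 and 3 samples, with an adjusted p of 0.560 in limma). Aurkb, the kinase of the chromosomal passenger complex, had secondary values of 7.17, 6.09, 6.38 and 6.29 and tertiary values of 5.93, 7.85 and 7.81. Its partners are Incenp, the scaffold, and Birc5, known as survivin. Incenp measured 9.56, 8.72, 9.25 and 9.07 against 7.99, 9.93 and 10.13, and Birc5 7.53, 7.06, 7.59 and 7.87 against 6.56, 8.71 and 8.98. All of these had their lowest value of the 7 samples in tertiary glioma 1 and their top values in tertiary gliomas 2 and 3.

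Polo-like kinases showed the same order of samples. For Plk1, which drives mitotic entry and spindle assembly, secondary gliomas had 6.13, 5.91, 6.31 and 6.69 and tertiary gliomas 5.25, 7.23 and 7.54. Plk4, the kinase that starts the duplication of centrioles, was tight in secondary gliomas at 6.58, 6.22, 6.40 and 6.30 and spread in tertiary ones at 5.88, 7.84 and 7.83. Its fold change was 0.81 ± 0.46 (adjusted p = 0.322, limma), and 1.46 ± 0.15 (adjusted p = 0.00194) without tertiary glioma 1.

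The spindle checkpoint held the gene with the largest tertiary SD and the gene with the smallest secondary SD. Bub1, a checkpoint kinase of the kinetochore, had 6.12, 4.87, 5.74 and 5.77 in secondary and 3.54, 6.94 and 7.11 in tertiary gliomas, a tertiary SD of 2.01 that was the largest of the 90 genes. Its value in tertiary glioma 1 lay below the dim filter of 3.99. These values come from the probe chosen for the gene. Another Bub1 probe above the filter had a mean of 4.60 and a fold change of 0.15. In that probe tertiary glioma 1 was not the lowest tertiary sample. Bub3, the WD-repeat partner that Bub1 and Bub1b share, was at 9.22, 9.26, 9.25 and 9.27 in secondary gliomas (SD 0.019, the smallest of the 90) and at 9.22, 9.99 and 9.73 in tertiary gliomas. Here tertiary glioma 1 lay just under the lowest secondary sample, and tertiary gliomas 2 and 3 were above all of them. Bub1b, which with Mad2l1 inhibits Cdc20, had secondary values of 5.99, 5.10, 5.85 and 5.99 and tertiary values of 5.30, 7.31 and 7.41. Mad2l1 measured 6.62, 5.96, 5.83 and 6.49 against 5.88, 7.16 and 7.51. Ttk, the kinase that recruits the checkpoint proteins, was at 7.05, 5.29, 5.37 and 6.40 in secondary gliomas and at 4.65, 7.34 and 7.60 in the tertiary ones. In each of these 5 genes both tertiary gliomas 2 and 3 exceeded every secondary sample.

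Without tertiary glioma 1, 9 of the 11 kinase and checkpoint genes passed and were higher (Incenp at an adjusted p of 0.0608 and Ttk at 0.113 did not), and the median fold change was 1.35. That fit compares 4 secondary samples with 2 tertiary ones, and 5.4% of all genes tested were called higher in it. Dropping tertiary glioma 2 or 3 instead gave medians of 0.26 and 0.23, and no gene of the role was called in either fit.

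Of the cyclins, Cdk1 and the genes of mitotic exit, 0 of 8 passed in limma, also at an unadjusted p under 0.05 (median log2 fold change 0.88). Cdk1, the kinase of mitotic entry, was at 7.34, 6.79, 6.99 and 7.53 in secondary gliomas 1 to 4 and at 6.33, 9.18 and 9.31 in tertiary gliomas 1 to 3. Tertiary gliomas 2 and 3 stood well above every secondary sample and tertiary glioma 1 below all of them. The fold change of 1.11 ± 0.68 had a 95% confidence interval of -0.47 to 2.69 (adjusted p = 0.359, limma), and it was 2.08 ± 0.23 (adjusted p = 0.00260) without tertiary glioma 1. Ccnb2, a B-type cyclin that activates Cdk1, measured 6.48, 5.36, 6.57 and 7.20 against 5.40, 8.10 and 8.55, with tertiary glioma 1 and secondary glioma 2 at nearly the same low level. Ccna2, the cyclin of S phase and early mitosis, measured 8.85, 7.49, 8.27 and 8.73 against 7.97, 9.53 and 10.21. For this gene tertiary glioma 1 fell inside the secondary range and the other tertiary samples above it.

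The phosphatases Cdc25b and Cdc25c, which remove the inhibitory phosphates from Cdk1, had fold changes of 0.54 ± 0.33 and 0.85 ± 0.46. Cdc20, the activator of the APC/C, had secondary values of 8.07, 7.04, 5.99 and 7.96, with secondary glioma 3 the lowest of all 7 samples, and tertiary values of 6.78, 8.86 and 8.87. Ube2c, the ubiquitin-conjugating enzyme that serves the APC/C, was at 10.00, 8.91, 9.08 and 9.90 in secondary and 8.19, 10.71 and 10.93 in tertiary gliomas. Pttg1, securin, which keeps sister chromatids joined until the APC/C destroys it, was at 10.54, 10.01, 10.22 and 10.95 and 8.37, 11.02 and 11.33. It had the lowest fold change of the 63 mitotic genes at -0.19 ± 0.67 (95% confidence interval -1.74 to 1.36), and the sign turned to 0.74 without tertiary glioma 1. With its 3 probes averaged Pttg1 was at 0.19. After tertiary glioma 1 was left out, 3 of the 8 genes were called higher, Cdk1, Ccnb2 and Cdc25c, and the median was 1.49, while it was 0.38 without tertiary glioma 3.

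**Figure D2:**
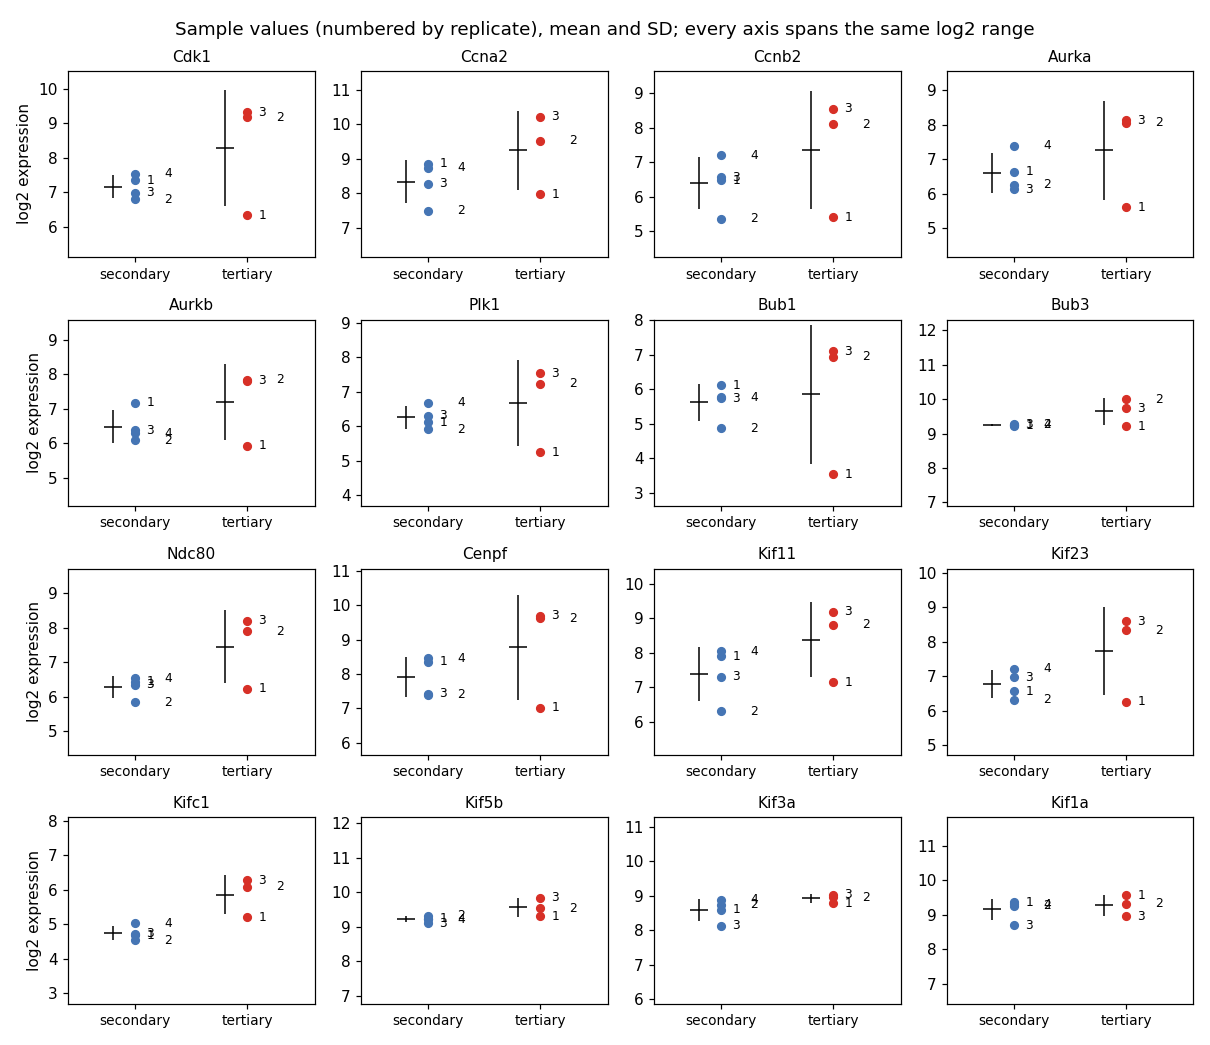
Sample values of 16 genes on the log2 scale (points, numbered by replicate; blue secondary, red tertiary), with the mean and SD of each group to the left of its points; every vertical axis spans the same log2 range. In the mitotic genes other than Kifc1, tertiary glioma 1 lies within or below the secondary values and tertiary gliomas 2 and 3 above them. The 3 transport kinesins in the last panels vary less than the mitotic genes shown, Bub3 excepted.

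Kifc1, a minus-end directed motor that draws spindle poles together, was the only member called, and it was higher in tertiary gliomas. It was at 4.68, 4.53, 4.72 and 5.03 in secondary gliomas 1 to 4 and at 5.20, 6.09 and 6.27 in tertiary gliomas 1 to 3. The groups did not overlap, although tertiary glioma 1 lay closer to the secondary samples than to the other tertiary ones. The group means were 4.74 ± 0.21 (SD, n = 4) and 5.85 ± 0.57 (SD, n = 3), a difference of 1.12 ± 0.27 (SE) on the log2 scale with an adjusted p of 0.0458 in limma. The call was lost when any sample other than tertiary glioma 1 was left out. Dropping secondary gliomas 1 to 4 in turn gave adjusted p-values of 0.0986, 0.115, 0.108 and 0.0682 in limma, and dropping tertiary gliomas 1 to 3 gave 0.00388, 0.165 and 0.148. With no filter on dim probes the adjusted p was 0.0594. The probe set of Kifc1 may also pick up similar transcripts. Its near copy Kifc5b, close to the dim filter, had 4.11, 3.67, 4.11 and 4.14 against 4.14, 4.21 and 4.75, with a fold change of 0.36 ± 0.20 (adjusted p = 0.317).

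Most other mitotic kinesins had the order of samples seen in the kinases. Kif11, the motor that slides the half-spindles apart, was at 7.89, 6.30, 7.30 and 8.03 in secondary and 7.14, 8.80 and 9.18 in tertiary gliomas. Kif23, the motor of the central spindle, measured 6.56, 6.32, 6.98 and 7.23 against 6.26, 8.34 and 8.60, and Kif20a, which brings the passenger complex to the central spindle, 8.20, 7.39, 7.28 and 7.96 against 7.01, 8.83 and 9.02. In these 3 genes tertiary gliomas 2 and 3 exceeded all secondary samples, and tertiary glioma 1 was the lowest of the 7 samples in Kif20a and Kif23. Kif2c, which takes apart microtubule ends at centromeres, measured 6.52, 6.24, 6.70 and 7.18 against 5.63, 8.29 and 8.30. Kif4, a chromosome-bound motor, had secondary values of 5.07, 5.21, 4.76 and 5.73 and tertiary values of 5.30, 6.65 and 6.89. For Kif4 tertiary glioma 1 fell among the secondary samples, and the fold change of 1.09 ± 0.40 had an adjusted p of 0.156 (limma).

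Kif18a and Kif18b, which damp the growth of microtubule plus ends, had the largest gaps within the tertiary group among the kinesins. Kif18a was at 2.58, 5.77 and 5.22 in tertiary gliomas and between 2.81 and 4.40 in secondary gliomas, and its mean lay below the dim filter. Kif18b was at 5.05, 8.01 and 8.08 against 6.92, 5.56, 6.18 and 6.36. Kif20b was at 7.13, 6.60, 6.68 and 7.35 against 5.18, 7.79 and 8.05 and had the smallest fold change of the mitotic kinesins tested, 0.066 ± 0.65, with tertiary glioma 1 far below the secondary samples and the other two above them. Kif15, which backs up Kif11, and Kif22, which binds chromosome arms, had fold changes of 0.62 ± 0.33 and 0.46 ± 0.65, and Kif14, below the dim filter, 0.56. Kif2b, also below the filter, was at 2.90, 2.32, 3.12 and 2.63 against 3.05, 2.47 and 2.66, the groups overlapping. Of the 14 mitotic kinesins 11 were tested, 1 passed (2 at an unadjusted p under 0.05), and the median over all 14 was 0.68. With tertiary glioma 1 left out the median was 1.38 and 7 of the 11 were called higher, namely Kif2c, Kif4, Kif18b, Kif20a, Kif20b, Kif23 and Kifc1, whereas it was 0.31 without tertiary glioma 2.

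Centromere and kinetochore genes held the largest fold changes of the set, and 0 of 24 passed in limma. At an unadjusted p under 0.05 there were 7 higher and 0 lower, and the median log2 fold change was 0.63. The role took in every Cenp symbol, so Cenpj is counted here by its name. Cenph and Cenpk, subunits of the inner kinetochore complex on centromeric chromatin, came to 5.96, 5.49, 6.06 and 6.43 and 6.84, 5.77, 6.59 and 6.83 in secondary gliomas 1 to 4. In tertiary gliomas 1 to 3 Cenph was at 5.62, 8.54 and 8.11 and Cenpk at 6.59, 8.08 and 8.19. Tertiary glioma 1 lay inside the secondary range for both and the other tertiary samples above it. The fold change of Cenph, 1.44 ± 0.65 (95% confidence interval -0.062 to 2.94; adjusted p = 0.225, limma), was the highest of the 90 genes, and it was 2.34 ± 0.27 (adjusted p = 0.00326) without tertiary glioma 1. Cenpw, a histone-fold subunit of the same complex, measured 5.38, 5.08, 5.22 and 5.64 against 5.16, 7.28 and 7.52 and had a fold change of 1.32 ± 0.53.

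Cenpa, the histone variant that marks the centromere, was at 6.42, 5.44, 6.42 and 6.42 in secondary and 5.20, 7.29 and 7.70 in tertiary gliomas. The 3 secondary gliomas other than number 2 shared the same value to the decimals deposited, and tertiary glioma 1 was the lowest sample. For the kinetochore motor Cenpe the secondary values were 7.11, 6.71, 6.65 and 7.86 and the tertiary ones 6.33, 8.37 and 8.93. Cenpf, a large protein of the outer kinetochore, measured 8.35, 7.39, 7.43 and 8.46 against 7.03, 9.62 and 9.70. Both were lowest of the 7 samples in tertiary glioma 1 and highest in tertiary gliomas 2 and 3.

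The Ndc80 complex, the microtubule clamp of the outer kinetochore, has 4 subunits, all on the array. Ndc80 was at 6.42, 5.83, 6.35 and 6.53 against 6.23, 7.89 and 8.20, Nuf2 at 7.25, 6.56, 6.75 and 7.01 against 5.82, 8.47 and 8.06, Spc24 at 5.27, 5.32, 5.69 and 5.92 against 5.16, 6.62 and 7.11 and Spc25 at 7.46, 6.13, 6.27 and 7.27 against 6.05, 7.88 and 8.42. In all 4 subunits tertiary gliomas 2 and 3 lay above every secondary sample. Fold changes were 1.16 ± 0.45, 0.56 ± 0.58, 0.74 ± 0.43 and 0.67 ± 0.59 in that order, and without tertiary glioma 1 the first 3 were called (adjusted p of 0.00512, 0.0140 and 0.0191) and Spc25 was not (0.0857).

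In 3 centromere genes, Cenpb, Cenpo and Cenpx, tertiary gliomas 2 and 3 were not both above all secondary samples. Cenpb, which binds a repeat of centromeric DNA, had fold change 0.27 ± 0.22, with tertiary glioma 1 at 7.18 inside a secondary range of 6.81 to 7.56. Cenpx, a small DNA-binding subunit, was at 7.28, 7.21, 6.96 and 7.44 against 7.10, 7.55 and 7.36, with overlap. Cenpo had its highest value, 7.61, in secondary glioma 3. Cenpv did have both above them and was at 8.48, 8.27, 7.87 and 8.31 against 8.51, 9.53 and 8.93, so its groups did not overlap, with tertiary glioma 1 just above the highest secondary sample (fold change 0.76 ± 0.26, adjusted p = 0.132, limma). In the fit that dropped tertiary glioma 1, 16 of the 24 centromere genes were called higher and the median was 1.23, and without tertiary glioma 3 it was 0.38.

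The 6 remaining genes of the spindle, cytokinesis and mitotic chromosomes held 0 that passed, also at an unadjusted p under 0.05 in limma (median 0.63). Top2a, the topoisomerase that untangles sister chromatids, was at 7.54, 6.59, 6.94 and 7.80 in secondary and 6.47, 9.34 and 9.53 in tertiary gliomas. Mki67, the coat of mitotic chromosomes used to stain dividing cells, measured 10.45, 9.43, 10.21 and 10.53 against 9.21, 10.93 and 11.29. Tertiary glioma 1 was the lowest sample in both genes. The fold change was 1.23 ± 0.72 for Top2a (adjusted p = 0.339) and 0.32 ± 0.50 for Mki67 (adjusted p = 0.738, 95% confidence interval -0.85 to 1.49). The microtubule-binding protein Tpx2, which activates Aurka, the bundling proteins Nusap1 and Prc1 and the cytokinesis factor Ect2 had fold changes of 0.56 (Ect2) to 0.76 (Tpx2). Tertiary glioma 1 was below tertiary gliomas 2 and 3 by more than 1 on the log2 scale in each. With that sample left out the median was 1.43 and Top2a, Tpx2, Nusap1 and Prc1 were called higher, and without tertiary glioma 3 the median was 0.21.

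**Figure D3:**
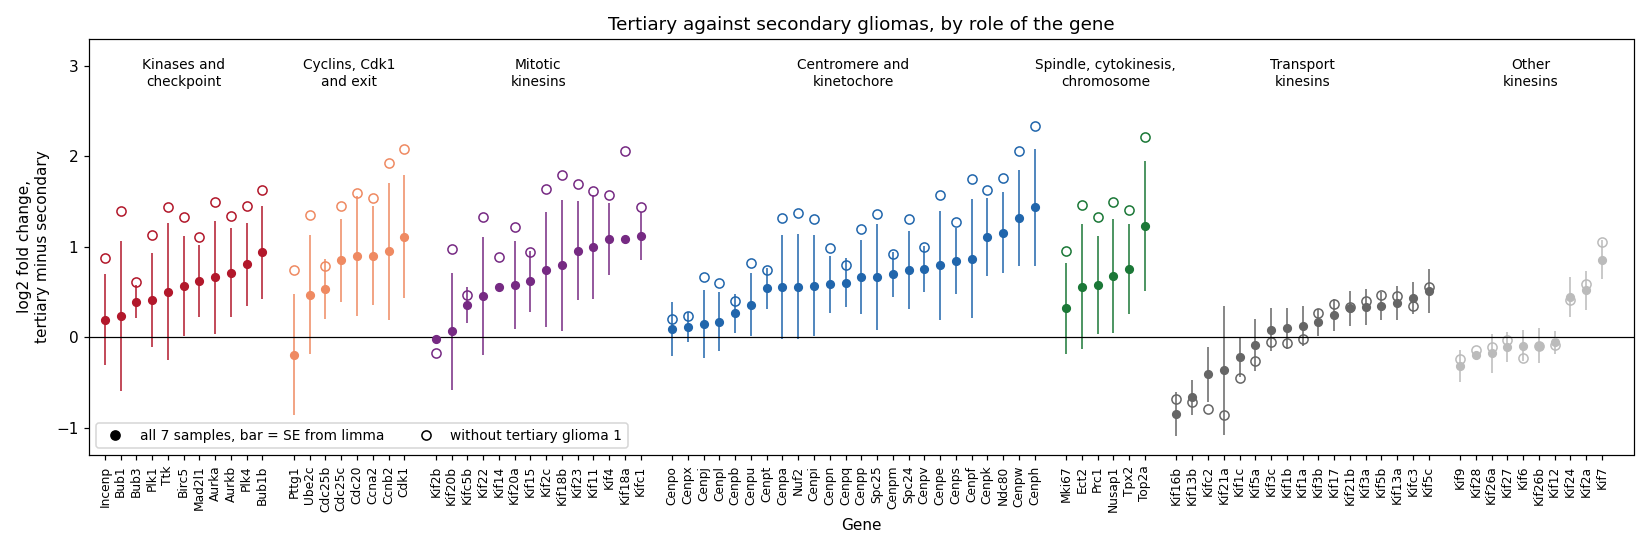
Log2 fold change, tertiary minus secondary, of the 90 genes by role; filled points with SE bars use all 7 samples and open points leave out tertiary glioma 1 (the 4 genes below the dim filter have no bar). The open points lie above the filled ones throughout the mitotic roles except Kif2b, and close to them for most transport and other kinesins.

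The transport kinesins had a median log2 fold change of 0.12, near the 0.087 of all genes tested, and 11 of 17 had a positive one, beside 61 of 63 mitotic genes and 60.6% of genes tested. The difference between these gene groups was not tested. The median was -0.032 without secondary glioma 3. None of the 17 passed in limma (1 higher and 2 lower at an unadjusted p under 0.05). Tertiary glioma 1 was the lowest tertiary sample in 6 of 17. Kif5b, the conventional kinesin of all tissues, was at 9.24, 9.31, 9.11 and 9.22 in secondary and 9.31, 9.54 and 9.84 in tertiary gliomas. Its forms Kif5a and Kif5c, typical of neurons, measured 8.83, 8.73, 8.08 and 7.82 against 8.65, 8.17 and 8.03 and 8.0, 8.31, 7.42 and 8.08 against 8.38, 8.79 and 8.22. The groups overlapped in all 3 genes of this family.

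Kif3a, a motor subunit of transport in cilia and axons, was at 8.59, 8.73, 8.12 and 8.88 against 8.78, 8.95 and 9.02, with overlap. Its partner Kif3b was at 6.87, 6.76, 6.86 and 6.77 against 6.78, 6.90 and 7.27, one of the smallest spreads of these kinesins, and Kif3c had a fold change of 0.086 ± 0.24. Kif1a, the carrier of synaptic vesicle precursors, was at 9.36, 9.26, 8.69 and 9.31 against 9.56, 9.32 and 8.96, with a 95% confidence interval of -0.38 to 0.63 for the fold change. Secondary glioma 3 had the lowest value of the secondary samples for both Kif3a and Kif1a, as it had in 9 of the 17 transport kinesins and in 32.7% of genes tested. Kif21a, a motor of axons, was at 6.16, 4.82, 5.65 and 5.65 in secondary gliomas and at 6.19, 6.18 and 3.25 in tertiary ones, so tertiary glioma 3 was the lowest sample, below the dim filter. Its tertiary SD of 1.69 was the largest of the transport kinesins, and with its 3 probes averaged the fold change went from -0.37 to 0.067.

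The lowest fold changes of the 90 genes belonged to Kif16b and Kif13b, which move endosomes and other vesicles. Kif16b was at 5.84, 6.08, 5.71 and 5.40 in secondary and 4.57, 5.40 and 4.76 in tertiary gliomas (-0.85 ± 0.24, adjusted p = 0.0854, limma), and its probe set may pick up similar transcripts too. It was called lower without tertiary glioma 2 (adjusted p = 0.0398), and with its probes averaged the fold change was -0.37. Kif13b, at 8.11, 8.52, 8.30 and 7.95 against 7.66, 7.22 and 7.78, had groups that did not overlap (-0.66 ± 0.20, adjusted p = 0.0932), and with its probes averaged it was at -0.36. Its relative Kif13a was at 7.85, 7.95, 7.59 and 8.31 against 8.15, 8.33 and 8.44 and went the other way, at 0.38 ± 0.19 (adjusted p = 0.259). Kifc3, a minus-end motor, was at 7.59, 7.58, 7.12 and 7.34 against 8.02, 7.59 and 7.92, a tertiary value equal to the top secondary one, and Kifc2, at 6.07, 6.13, 5.79 and 5.91 against 6.33, 4.93 and 5.44, was called lower without tertiary glioma 1 (adjusted p = 0.0425).

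Among the 10 other kinesins Kif7, a ciliary kinesin of Hedgehog signalling, came nearest to the threshold. It was at 5.67, 6.01, 6.31 and 6.18 in secondary and 6.52, 7.11 and 7.08 in tertiary gliomas, without overlap, and had a fold change of 0.86 ± 0.21 (adjusted p = 0.0545, limma). Leaving out tertiary glioma 1 gave an adjusted p of 0.0208. Kif2a, a microtubule depolymerase that acts in neurons as well as on spindles, measured 8.73, 8.44, 7.99 and 8.81 against 8.88, 9.08 and 9.08 (0.52 ± 0.21, adjusted p = 0.190). It did not overlap either, though tertiary glioma 1 lay nearer to the highest secondary sample than to the other tertiary ones. Kif24, which holds back the growth of cilia, was at 0.45 ± 0.22. The remaining 7, among them the ciliary and flagellar kinesins Kif6, Kif9 and Kif27, had fold changes of -0.32 (Kif9) to -0.055 (Kif12), and the median of the 10 was -0.093. None of the 9 tested passed (2 at an unadjusted p under 0.05). Values of all tertiary samples above all secondary ones occurred in 5 of the 90 genes (Cenpv, Kif2a, Kif7, Kifc1 and Kifc5b), where 10.8% of genes tested did so, and below them in 2 (Kif13b and Kif28), where 11.2% did.

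The mitotic genes were more spread within the groups than most genes on the array. Their median SD was 0.40 over secondary and 1.14 over tertiary gliomas, and the tertiary SD was the larger in 59 of 63, the exceptions being Cenpb, Cenpo, Cenpq and Kif2b. For the transport kinesins the medians were 0.29 and 0.30, with 11 of 17 larger in tertiary gliomas. Over all genes tested they were 0.23 and 0.24, and 51.7% had the larger SD in tertiary gliomas. The median gap between the highest and lowest tertiary sample was 2.09 on the log2 scale for the mitotic genes and 0.45 for all genes tested. The difference in spread was not tested, since the 63 genes share the same 7 samples and varied together.

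**Figure D4:**
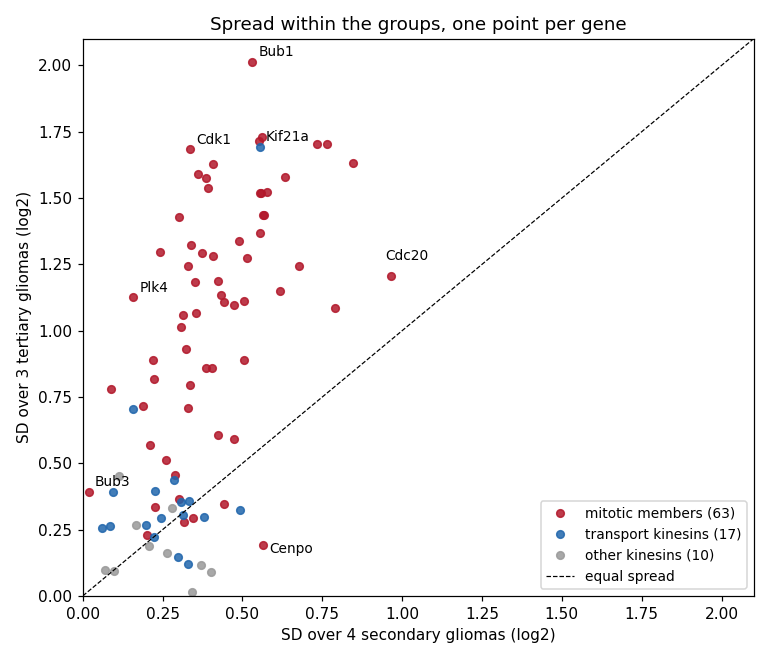
Standard deviation over the 3 tertiary gliomas (vertical) against that over the 4 secondary gliomas (horizontal), both on the log2 scale, 1 point per gene. Of the 63 mitotic genes 59 lie above the dashed line of equal spread, up to 2.01 for Bub1, while most transport and other kinesins stay near it.

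Measured from the secondary mean of each gene, the median difference over the 63 mitotic genes was -0.54 in tertiary glioma 1, 1.25 in tertiary glioma 2 and 1.46 in tertiary glioma 3. For the transport kinesins these were 0.28, 0.17 and 0.15, and for all genes tested 0.065, 0.06 and 0.064. Tertiary glioma 1 was below every other sample in 35 of the 63 mitotic genes, beside 14.0% of genes tested. By role it was lowest of all in 9 of 11 kinases and checkpoint genes and in 5 of the 6 spindle, cytokinesis and chromosome genes, but in 3 of 8 cyclins and exit genes. The secondary gliomas had an order of their own: secondary glioma 2 was the lowest of the 4 in 41 of 63 mitotic genes (17.3% of genes tested), and secondary glioma 1 or 4 was the highest in 56 (45.3%).

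Cell cycle genes outside the rule ran in the same order of samples. Of 63 further G2/M symbols listed, among them condensins, shugoshins and the transcription factors Foxm1 and Mybl2, 56 were measured, and the mean of the list was 6.72, 6.11, 6.44 and 6.81 in secondary gliomas 1 to 4 and 6.03, 7.60 and 7.73 in tertiary gliomas 1 to 3. The mitotic genes themselves had means of 6.76, 6.16, 6.44 and 6.83 and 5.97, 7.76 and 7.85. For 42 genes of S phase, such as the Mcm helicase and the replication clamp Pcna, the means were 6.99, 6.71, 7.03 and 7.24 and 6.68, 8.17 and 7.98. In all 3 lists tertiary gliomas 2 and 3 had the highest means and tertiary glioma 1 the lowest. None of the 55 G2/M and 42 S phase genes tested passed in limma (8 and 14 at an unadjusted p under 0.05, each of them higher), and the medians were 0.59 and 0.61. Leaving out tertiary glioma 1, 26 and 28 were called higher and the medians were 1.12 and 1.18. Transport kinesins had means of 7.95, 7.95, 7.63 and 7.78 in secondary and 7.99, 7.85 and 7.73 in tertiary gliomas.

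**Figure D5:**
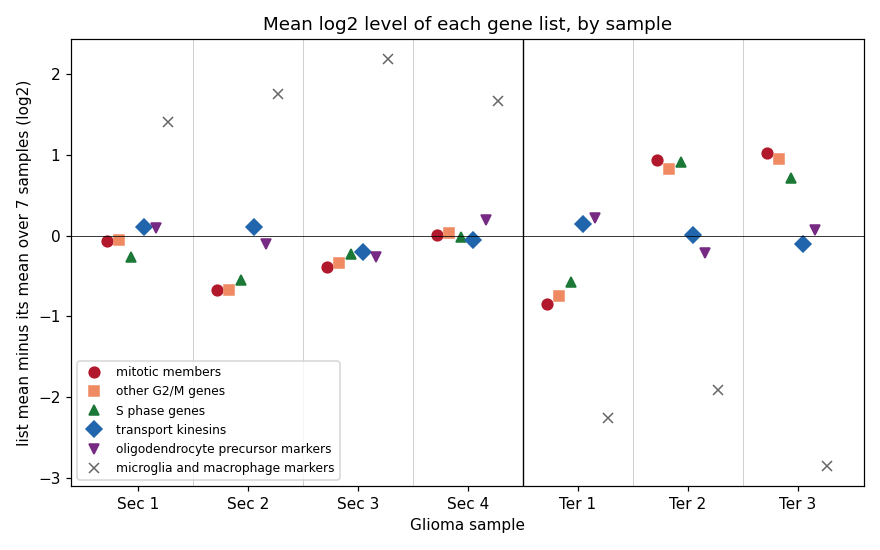
Mean log2 level of 6 gene lists in each of the 7 samples, each list shown relative to its own mean over the samples (vertical axis, log2). The 3 cell cycle lists lie lowest in tertiary glioma 1 and highest in tertiary gliomas 2 and 3, the transport kinesins and oligodendrocyte precursor markers stay near 0, and the microglia and macrophage markers are high in all secondary and low in all tertiary samples.

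How far the comparison of the groups rested on 1 sample can be read from the count of calls. Tertiary glioma 1 was picked out by the values of these same genes, so the calls without it only describe the data. Without tertiary glioma 1, 39 of the 60 tested mitotic genes were called higher and 0 lower, beside 5.4% and 7.44% of all genes tested. With no filter on dim probes, so that all members were tested, the count was 28 of 63 in that fit, beside 3.77% of genes, and 0 of the 90 members in the fit to all 7 samples (14 at an unadjusted p under 0.05), where 5.32% of genes were called. With array weights, which were lowest for tertiary glioma 1, 11 of 86 members and 13.4% of all genes were called. Leaving out any 1 secondary sample gave 0 called members of 86 in limma, where 6.44, 5.18, 5.69 and 5.44% of all genes tested were called (10, 7, 6 and 14 at an unadjusted p under 0.05 without secondary gliomas 1 to 4). Kif16b alone was called when tertiary glioma 2 was dropped (4.48% of all genes), and none when tertiary glioma 3 was (4.52% of all genes; 7 at an unadjusted p under 0.05). The median over the mitotic genes was 0.62 with all samples, and 1.33, 0.34 and 0.30 when tertiary gliomas 1 to 3 were dropped in turn. In the 28 mitotic genes with at least 2 probes above the dim filter, 46 such probes were not the one chosen for the gene, and 39 of these 46 had their lowest tertiary value in tertiary glioma 1. In 22 of the 28 genes all such probes, the chosen one included, had fold changes of the same sign.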

How the data were processed

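Sorted EGFP-positive cells of 7 samples were profiled on Affymetrix mouse arrays. The labels' protocols give 30 ng of total RNA, amplified with the NuGEN Pico kit. The authors deposited log2 values, 1 per probe and array, made with RMA per the submitters' processing notes; no label states the software version, and the log base was inferred from the range of values. RMA equalises the arrays and compresses differences of dim probes. Probes were named from the platform annotation. By its probe name, the chosen probe of 14 members may bind related transcripts. These members are Aurkb, Bub3, Cdc20, Cdc25c, Cenpn, Incenp, Kif2c, Kif3b, Kif12, Kif16b, Kif22, Kifc1, Prc1 and Pttg1. Of 45101 probes, 34945 had 1 symbol, 932 several and 9160 none. The dim filter dropped genes under the 25th percentile of all probe means (3.99 on the log2 scale) and left 14453 to test.

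Groups were compared with limma 3.58.1 in R 4.3.3 (lmFit, eBayes, no covariate), with Benjamini-Hochberg adjustment over all genes tested and a threshold of 0.05. Figures were drawn with matplotlib 3.10.9. Promoter windows came from RefSeq on GRCm38.p6. Steps were tested on simulated data. Members, roles and lists were chosen with earlier results of these data known. Values in all samples were to be given for called genes, for a fixed set of 34 symbols, of which Ccnb1 was not analysed here, and for the extremes of fold change and spread. Kif28, on none of the role lists, was placed with the other kinesins after its value was seen. The alternatives were other probe summaries, filters, scalings, weights, variances, a replicate block and leaving out each sample. Deviations of same-numbered secondary and tertiary samples from their group means had correlations of 0.036, -0.14 and 0.015 over genes. Those of differently numbered samples ran from -0.24 to 0.27. The labels do not state a pairing, and such correlations cannot decide it. The main fit did not pair samples.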

Additional observations from a re-analysis of the deposited data

Results flagged for a closer look

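In 6 of the 90 genes 1 of the 4 secondary samples lay far from the other 3 by Dixon's gap ratio, where chance flags about 1 in 20 groups. Secondary glioma 2 was low in 3 mitotic genes: Bub1b at 5.10 (the others 5.85 to 5.99), Cenpa at 5.44 (the others all 6.42) and Kifc5b at 3.67 (the others 4.11 to 4.14). The other 3 values of Cenpa were equal, which makes the gap ratio as large as it can be. Equal values are a feature of this array table: between pairs of arrays 2.8 to 5.4% of probes held the same value. Cenpn was at 5.74 in secondary glioma 1, with the others between 5.33 and 5.40. Secondary glioma 3 was low in Kif1a at 8.69 (the others 9.26 to 9.36) and high in Kif9 at 4.78 (the others 4.22 to 4.28). The tertiary group, with 3 samples, is too small for this rule.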

How the results depend on the processing

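The number of called members, 1 with all samples, was 2 with the probes of a gene averaged, 0 without the dim filter, 11 with array weights and 0 with the replicate block, and 0 to 41 over the fits that left out 1 sample. All genes called numbered 1066, 1933 with array weights, 636 with the replicate block and 647 to 1857 with 1 sample left out. Tertiary glioma 1 had the lowest array weight. With the filter at the 50th percentile Kifc1 was too dim to be tested and Kif7 was the 1 member called. With 1 sample left out the median fold change was 0.30 to 1.33 for the mitotic genes and -0.032 to 0.21 for the transport kinesins (the lowest without secondary glioma 3). Signs turned in genes that were not called. With probes averaged Kif21a was at 0.067, Kif5a at 0.0051 and Pttg1 at 0.19, and with array weights Kif1a was at -0.098 and Pttg1 at 0.38. Over the fits with 1 sample left out the fold change ran from -0.38 to 1.40 for Bub1, -0.19 to 0.88 for Incenp, -0.032 to 0.28 for Kif1a, -0.46 to 0.98 for Kif20b, -0.86 to 0.61 for Kif21a, -0.26 to 0.073 for Kif5a, -0.084 to 0.96 for Mki67, -0.018 to 1.13 for Plk1, -0.74 to 0.74 for Pttg1, -0.033 to 1.44 for Ttk and -0.021 to 1.35 for Ube2c. The cause of these changes was not tested. Quantile normalization, median centring and trended, robust variances kept the sign and the call of all 46 tested genes examined. With 4 and 3 arrays, and no detection calls, values near the dim filter are the least certain.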
